A study of Mus musculus with 36 samples.

Results

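Open chromatin was described at 10 mouse genes that act in natriuretic peptide and insulin-like growth factor (IGF) control of bone growth, in cartilage of the developing hand and foot. The genes were Nppc, Npr2, Npr3 and Prkg2 of the C-type natriuretic peptide pathway, Igf1, Igf2, Igf1r, Ghr and Igfbp5 of the growth hormone and IGF pathway, and the growth regulator Hmga2. They were chosen by name. Each gene was given a window of its mm10 gene body and 100 kb on either side, and every peak of the 12 deposited lists that overlapped a window was taken. Overlapping peaks, from 1 bp of overlap upward, were joined into regions. The windows held 123 of the 65543 regions of the genome, made from 930 peaks. At the 100 kb edge, the farthest region taken lay 98.3 kb from Ghr, called in 1 list, and the nearest region left out lay 101.5 kb from Igf2, called in 2 lists.

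The peaks came from ATAC-seq, an assay that maps open chromatin by where a transposase can insert sequencing adapters. The mouse samples belong to a series on how the human hand and foot skeleton evolved. All groups were FVB/NJ embryos, an inbred strain, at stage E15.5 of gestation, with no mutation, transgene or treatment given in the labels. The groups were foot phalanges, hand phalanges, metatarsals and metacarpals, each taken from digits I, III and V. Phalanges are the finger and toe bones, and the metatarsals and metacarpals, together called metapodials, are the long bones of the foot and hand that carry them. Each of the 36 libraries, 3 per group, came from whole elements dissected from 3 to 5 littermates, with left and right limbs pooled, so a library is not 1 animal and no cell sort is given. The lists hold 1 entry per group, called on the pooled libraries, so no error can be put on a single list, and every SD given here is over lists. The depth per library is unknown. A list is not a level: fewer cells with an open region and weaker opening per cell cannot be told apart, and a region missing from a list may lie below that list's threshold.

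C-type natriuretic peptide, encoded by Nppc, is made in the growth plate and binds NPR2, a receptor that makes cyclic GMP. Cyclic GMP activates the kinase encoded by Prkg2 in chondrocytes, which opposes fibroblast growth factor signalling and favours lengthening of bone, while NPR3 clears the peptide. Growth hormone acts through GHR, in part by raising IGF1. IGF1 and IGF2 both signal through IGF1R, and IGFBP5 binds the IGFs in the matrix. HMGA2 is a chromatin protein of fetal growth, and mice that lack it are small.

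The lists held 36194 to 53276 peaks, with digit III lists among the longer ones and a lowest −log10 p-value between 23.0 and 49.6, so they did not end at a common significance. Of 10 chondrocyte markers, 8 had a peak within 1 kb of a gene end in all 12 lists (among them Sox9, Col2a1 and Acan), Col9a1 had one in 11 lists and Matn1 in 9. The epidermal markers Krt5, Krt14 and Trp63 had none, and neither did Pecam1, Ptprc or Csf1r. A peak was present in all lists at Kdr and Tek of endothelium, Scx and Mkx of tendon and Spi1 of blood cells, and in 3 to 10 lists at the 4 muscle markers. Peaks within 1 kb of a gene end were called in all lists at 13421 of 21883 protein-coding genes, so a single marker of this kind does not identify a cell type, and the part of other cells in the results was not tested.

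The RefSeq promoter table (GRCm38.p6, the build with mm10 coordinates) held 13 start sites for 9 of the 10 genes, and Prkg2 was not among them. Of the 13 start sites, 12 lay under a peak of all 12 lists, against 59.9% of 21262 start sites of protein-coding genes. The exception was the most upstream start site of Igf2, which lay under a peak of 1 list, the hand phalanges of digit III. The 4 windows printed here, each 250 bases before to 50 bases after a start site, are those on which this contrast and the strongest regions turn: Nppc on the minus strand of chromosome 1 (chr1:86670524-86670823), Ghr on the minus strand of chromosome 15 (chr15:3583303-3583602), and the outermost 2 of the 4 Igf2 start sites on the minus strand of chromosome 7 (chr7:142657447-142657746 and chr7:142666767-142667066). They are the reference sequence, not that of FVB/NJ. Capitals mark the GC box GGGCGG, the TATA box TATAAA and the CCAAT box CCAAT on either strand.
Nppc: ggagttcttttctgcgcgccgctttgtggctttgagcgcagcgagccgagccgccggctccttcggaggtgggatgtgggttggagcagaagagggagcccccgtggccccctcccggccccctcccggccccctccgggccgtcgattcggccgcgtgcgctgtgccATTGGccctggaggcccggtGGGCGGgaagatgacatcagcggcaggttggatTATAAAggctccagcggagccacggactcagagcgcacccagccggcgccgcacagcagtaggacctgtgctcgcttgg
Ghr most upstream start site: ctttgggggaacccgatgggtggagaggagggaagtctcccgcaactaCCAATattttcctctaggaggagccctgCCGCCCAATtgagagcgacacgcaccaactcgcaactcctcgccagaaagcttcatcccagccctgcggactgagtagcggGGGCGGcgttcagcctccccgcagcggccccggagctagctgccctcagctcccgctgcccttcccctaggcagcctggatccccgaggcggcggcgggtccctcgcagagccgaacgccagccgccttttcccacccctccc
Igf2 most downstream start site: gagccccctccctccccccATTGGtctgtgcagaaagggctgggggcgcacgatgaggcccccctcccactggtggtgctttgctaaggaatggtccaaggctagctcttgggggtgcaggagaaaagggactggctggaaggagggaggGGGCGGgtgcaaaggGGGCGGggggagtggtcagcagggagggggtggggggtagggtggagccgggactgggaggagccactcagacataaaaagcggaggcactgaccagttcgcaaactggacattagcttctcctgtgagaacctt
Igf2 most upstream start site: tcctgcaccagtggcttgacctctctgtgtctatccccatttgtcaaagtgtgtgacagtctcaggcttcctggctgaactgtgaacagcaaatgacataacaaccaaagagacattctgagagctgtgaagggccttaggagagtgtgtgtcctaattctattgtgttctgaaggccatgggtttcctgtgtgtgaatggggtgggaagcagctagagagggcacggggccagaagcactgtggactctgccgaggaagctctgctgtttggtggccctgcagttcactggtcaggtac
A GC box stood in 6 of the 13 windows, against 46.2% of all 21262 windows, and in the Ghr window one of its matches overlaps a CCAAT box. A TATA box stood in 2 of 13 windows, those of Nppc and of the downstream Ghr start site, against 12.6% of all windows, and the one of Nppc began at position -29 from the start site. A CCAAT box stood in 6 of 13 windows, against 38.2%. The most upstream Igf2 window held none of these motifs. Searched in the same way, the SOX core ACAAAG matched 5 of 13 windows (16.8% of all) and the AP-1 motif TGANTCA 2 of 13 (6.99% of all). The cyclic AMP response element TGACGTCA (2.23% of all), the RUNX core TGTGGT (15.0% of all) and the E-box CACGTG (7.84% of all) matched none. These matches are descriptions of letters and not sites of binding.

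The 10 windows held a median of 12.5 regions, against 9 over 20028 protein-coding genes with at least 1 region in the same kind of window. Per length, the density ran from 2.15 regions per 100 kb at Igf1 and 2.58 at Ghr to 5.07 at Igfbp5 and 5.85 at Npr2. Across the 12 lists, 39 of the 123 regions (31.7%) were called in every list, against 35.6% of all regions, and 23 (18.7%) were called in 1 list, against 17.0%. The regions at these genes were thus spread over the number of lists much like regions elsewhere, and their median width of 2362 bp lay beside 2360 bp for all regions. Sorted by position at any protein-coding gene, 19 of 24 regions over a start site were called in all lists (90.8% of all regions of that kind), as were 10 of 55 in a gene but off its start sites (27.4% of all) and 10 of 44 outside genes (21.0% of all). The region at the higher-coordinate end of Prkg2 counts as off start sites, since the table of start sites lacks that gene. Of the 123 regions, 77 had the named gene as their nearest protein-coding gene, and 46 lay in or nearer to another gene.

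**Figure D1:**
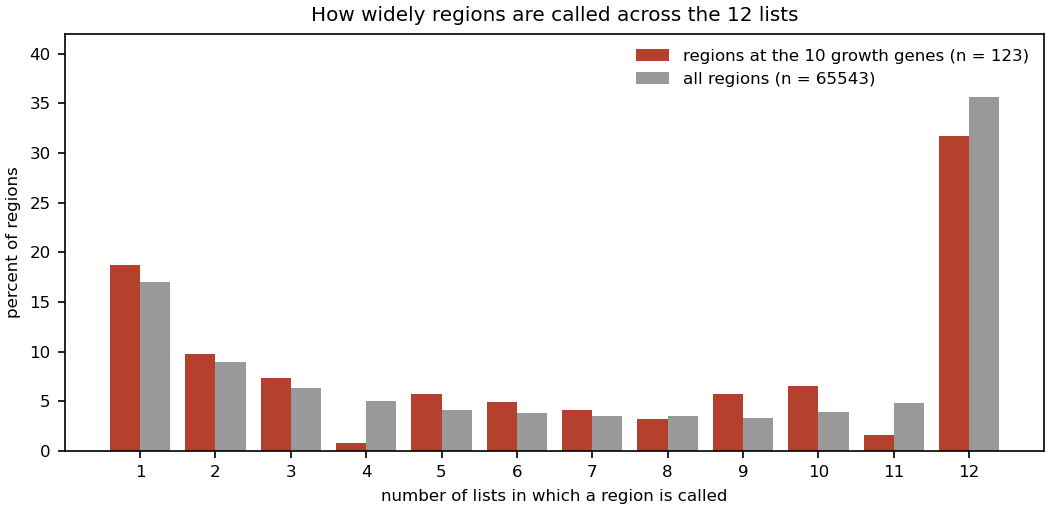
Percent of regions (vertical axis) called in each number of lists, from 1 to 12 (horizontal axis), for the 123 regions at the growth genes (red) and all 65543 regions (grey). Both distributions peak at the ends, with 31.7% and 35.6% of regions called in all 12 lists and 18.7% and 17.0% called in 1 list.

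The number of called regions differed little between lists at Nppc, the ligand gene, and widely at Prkg2, Ghr and Igf1. The plot by list shows each gene on its own scale.

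**Figure D2:**
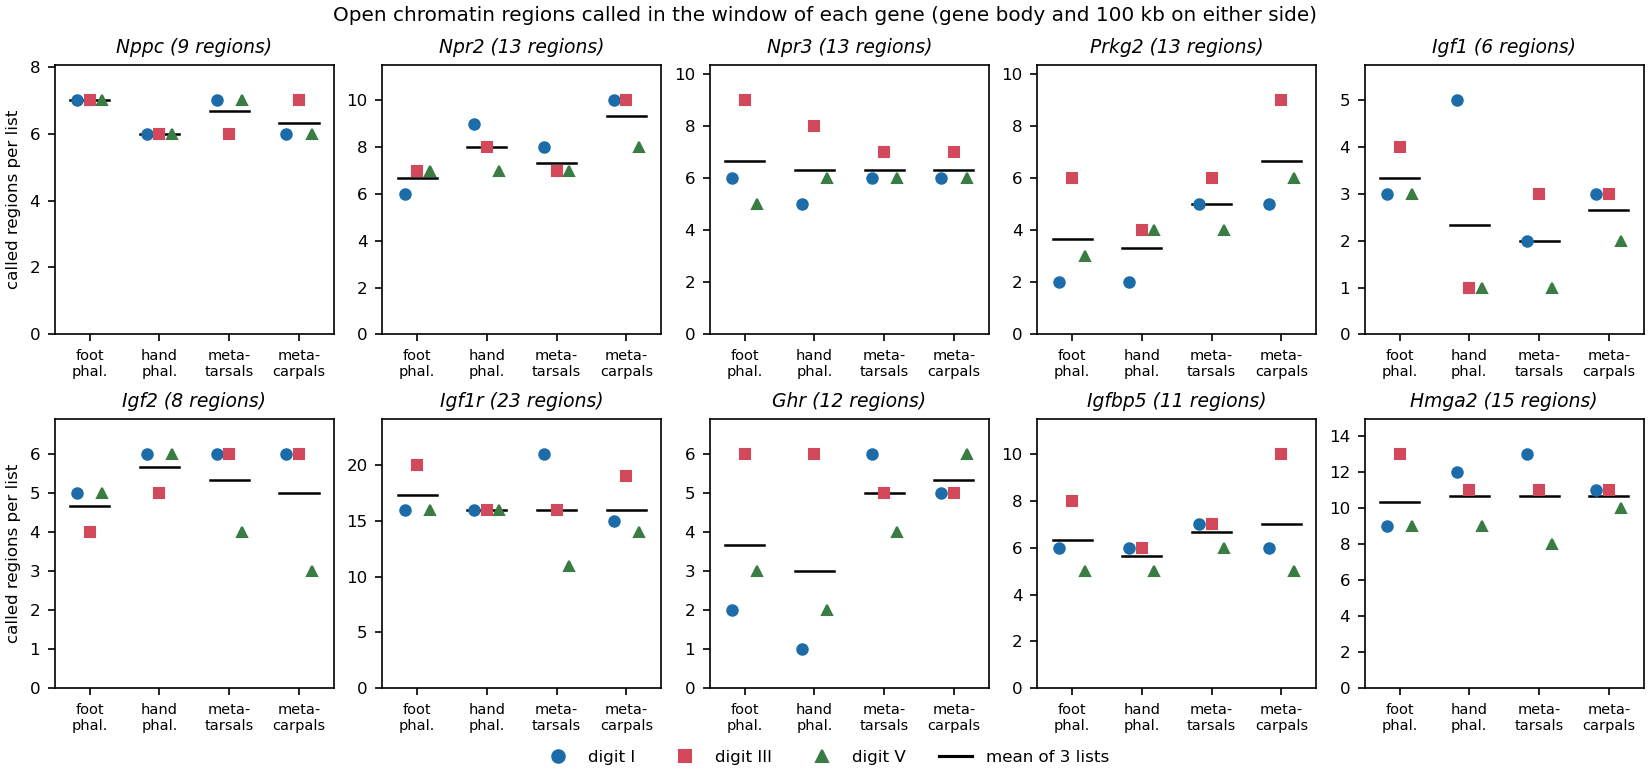
Number of called regions (vertical axis, from 0) in the window of each of the 10 genes, by group (horizontal axis: foot phalanges, hand phalanges, metatarsals, metacarpals). Each point is 1 list, with digit I as circles, digit III as squares and digit V as triangles, and the bar is the mean of the 3 lists. Nppc stays between 6 and 7, whereas Prkg2 ranges from 2 in the phalanges of digit I of foot and hand to 9 in the metacarpal of digit III.

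Nppc (chr1:86666293-86670573, minus strand), the gene of C-type natriuretic peptide, had 9 regions in its window. The called number was 7 in each of the 3 foot phalanx lists, 6 in each of the 3 hand phalanx lists, 7, 6 and 7 in metatarsals of digits I, III and V, and 6, 7 and 6 in metacarpals. All 12 lists thus fell within 1 region of each other, and 6 of the 9 regions were called in every list. One of them covered the start site, and its summit lay at -84 to 3 bp from it (negative values upstream) in every list, with a median of -3 bp. By mean rank within the lists it stood in the top 8.90% of peaks by the authors' p-value, which made it the strongest of the window. The other 5 lay with their centres 27.5, 47.2, 83.5 and 88.2 kb downstream of the start site and at -33.6 kb, upstream of it, and all but the nearest of them lay in or nearer to Cops7b, Pde6d or Dis3l2. A further region, chr1:86598095-86600295, was called in all 3 foot phalanx lists and in none of the other 9 lists. It lies inside Cops7b, 66.0 kb past the downstream end of Nppc, and ranked low in each list, between 73.0% and 87.2% from the top. Within it, a stretch of 1239 bp was shared by the 3 foot phalanx peaks. Hindlimb lists averaged 6.83 ± 0.408 called Nppc regions and forelimb lists 6.17 ± 0.408 (SD, n = 6 lists each), a difference that missed the threshold in the two-sided exact permutation test (p = 0.219).

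Igf1 (chr10:87858265-87937047, plus strand), the gene of the circulating and local growth factor, had the sparsest window, with 6 regions, and it held the other region of this kind. Called regions numbered 3, 4 and 3 in foot phalanges of digits I, III and V, and 5, 1 and 1 in hand phalanges. They numbered 2, 3 and 1 in metatarsals and 3, 3 and 2 in metacarpals. The groups overlap throughout, and 3 lists (the hand phalanges of digits III and V and the metatarsal of digit V) held only the region over the start site. That region was the one Igf1 region called in all lists, with its summit at -623 to -398 bp from the start site. The region chr10:87865661-87870079 lies inside the gene, centred 6.76 kb downstream of the start site, and was called in all 3 foot phalanx lists and in none of the other 9. A stretch of 1493 bp was common to its 3 peaks. A region 44.4 kb upstream of the gene, chr10:87811996-87813863, was called in 4 phalanx lists and 1 metapodial list, namely the 3 foot phalanx lists, hand phalanges of digit I and the metatarsal of digit I. A region 87.3 kb past the downstream end, chr10:88024383-88025641, was called in 1 phalanx list and 4 metapodial lists, namely hand phalanges of digit I, the metatarsal of digit III and the 3 metacarpal lists.

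**Figure D3:**
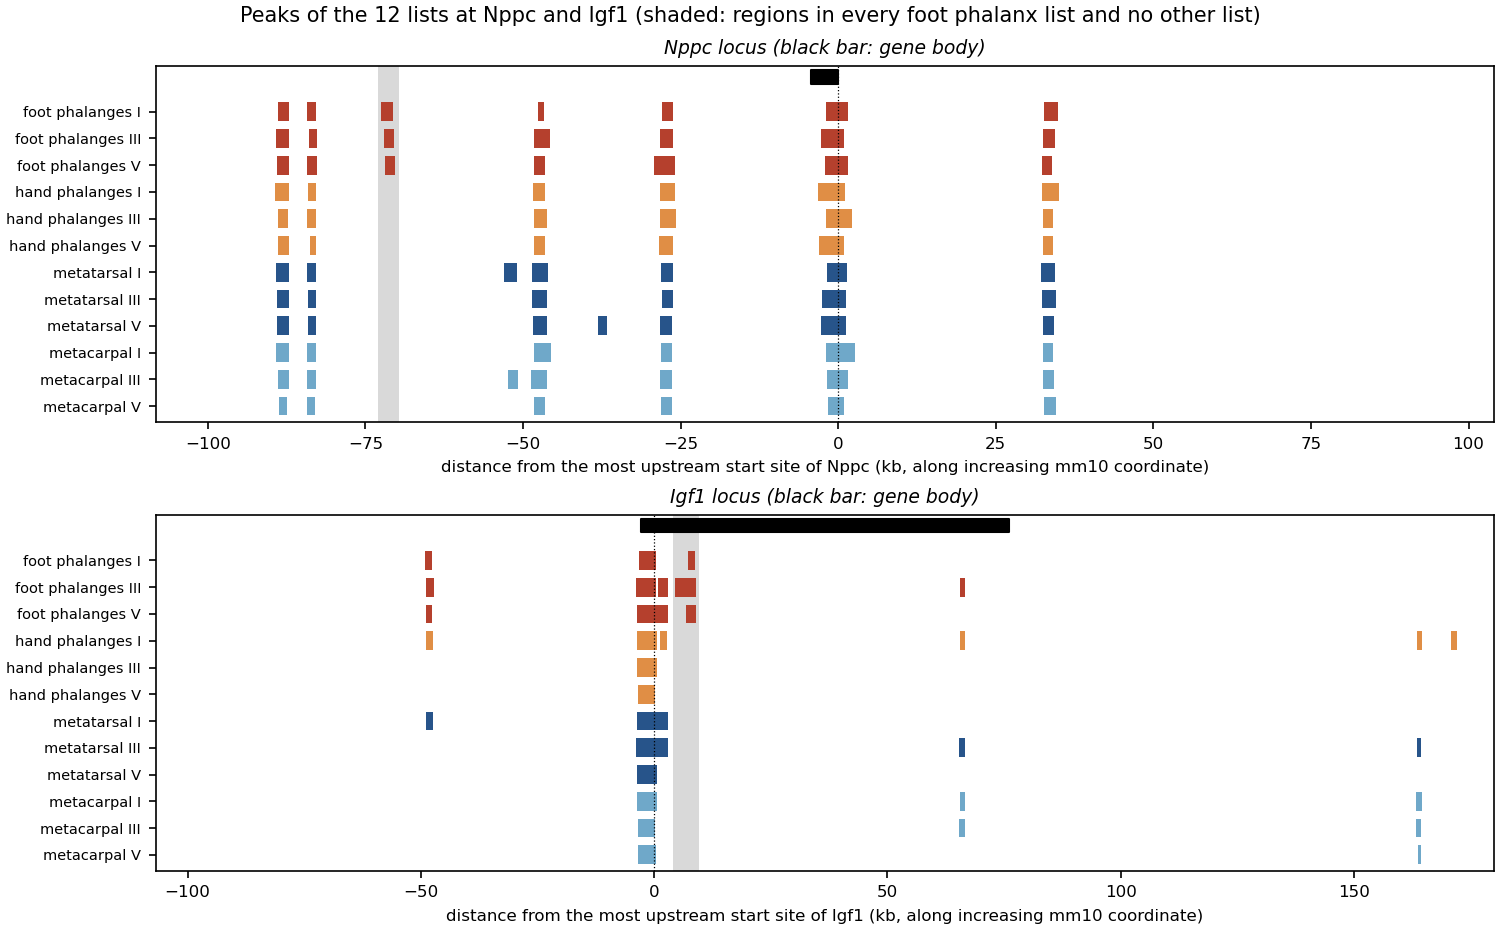
Peaks of the 12 lists (rows, coloured by group) at Nppc and Igf1, by distance in kb from the most upstream start site (horizontal axis, increasing mm10 coordinate; Nppc reads from right to left). The black bar is the gene body and the grey bands mark the 2 regions called in the 3 foot phalanx lists and in no other list.

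Of the 4 groups of limb and element, foot phalanges were the one with such regions: 2 of 123 regions (1.63%) were called in all 3 foot phalanx lists and in no other, against 0.493% of all regions. None of the 123 had that pattern in hand phalanges (0.0107% of all regions), metatarsals (0.0961%) or metacarpals (0.119%). Both regions were weak in the lists that held them, and with every list shortened to its 36194 most significant peaks neither remained in all 3 foot phalanx lists. No region of the 123 was called in all lists of 1 element, limb or digit and in no other list, where the shares over all regions were 0.119% for phalanges, 0.0915% for metapodials, 0.0763% for hindlimb, 0.00610% for forelimb, 0.00610% for digit I, 0.117% for digit III and 0.00153% for digit V.

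Npr2 (chr4:43629015-43651437, plus strand), which encodes the receptor for C-type natriuretic peptide, lies in a gene-dense stretch, and 11 of its 13 regions lay nearer to another gene. Lists of foot phalanges of digits I, III and V had 6, 7 and 7 called regions, metatarsals 8, 7 and 7, hand phalanges 9, 8 and 7, and metacarpals 10, 10 and 8. The region over the start site was called in all lists and had its summit at -528 to -275 bp. The strongest region of the window covered the neighbours Creb3 and Tln1, at a mean rank in the top 6.79%. Hindlimb lists averaged 7.0 ± 0.632 called regions and forelimb lists 8.67 ± 1.21 (SD, n = 6 lists each), and the hindlimb list had fewer in 5 of 6 pairs matched for element and digit and more in none. The difference of -1.67 regions missed the threshold in the two-sided exact permutation test (p = 0.0625, where 0.0312 is the smallest p that this design can give), and did so too at -1.17 regions with lists of equal length (exact permutation p = 0.250). As a share of the regions called in each list it passed (-0.501 per 10000 called regions, exact permutation p = 0.0312, against 1.47% of all genes called lower), and in the gene body alone it was -0.17 regions (exact permutation p = 1). The region that contributed most, chr4:43747096-43749087, lies 95.7 kb past the gene near Spaar and was called in 1 hindlimb list (the metatarsal of digit I) and 4 forelimb lists (the 3 metacarpals and hand phalanges of digit I).

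Npr3 (chr15:11839896-11907837, minus strand), the clearance receptor gene, had 13 regions, of which 10 had Npr3 as their nearest gene. Called regions numbered 6, 9 and 5 in foot phalanges, 5, 8 and 6 in hand phalanges, 6, 7 and 6 in metatarsals and 6, 7 and 6 in metacarpals, each for digits I, III and V. In every group the digit III list had the most. The region over the start site was called in all lists, with its summit 2062 to 2109 bp downstream of the start site, the farthest of the genes with 1 start site. Another region called in all lists, chr15:11741069-11743089, lay 96.8 kb past the downstream end with no other gene nearer. The strongest region of the window lay at the neighbour Sub1, at a mean rank in the top 7.07%.

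Prkg2 (chr5:98929773-99037375), the kinase gene of the pathway, had a lower mean number of called regions in phalanges, by a difference that missed the threshold. The called number was 2, 6 and 3 in foot phalanges of digits I, III and V, 2, 4 and 4 in hand phalanges, 5, 6 and 4 in metatarsals, and 5, 9 and 6 in metacarpals. The phalanx list had fewer in 5 of 6 matched pairs and more in none, although the ranges overlap at 4 to 6 regions. The mean was 3.5 ± 1.52 in phalanges and 5.83 ± 1.72 in metapodials (SD, n = 6 lists each), a difference of -2.33 regions that missed the threshold in the two-sided exact permutation test (p = 0.0625). With lists of equal length the difference was -1.50 regions and reached the smallest p the design allows (exact permutation p = 0.0312, against 1.97% of all genes called lower), whereas with the more significant 50% of each list it was -0.50 regions (exact permutation p = 1). Only 2 of the 13 regions were called in all lists: one over the higher-coordinate end of the gene, chr5:99035592-99039314, at a mean rank in the top 9.81%, and one in the neighbour Bmp3, chr5:98853372-98857791. Of the 11 regions that varied, 7 lie inside the gene. The region chr5:98943085-98945105 was called in 3 phalanx lists (foot III, hand III and hand V) and in all 6 metapodial lists. Its neighbour chr5:98950509-98951921 was called in the same 3 phalanx lists and in 5 metapodial lists. Outside the gene, chr5:98843606-98845967 was called in no phalanx list and in 4 metapodial lists, the 3 metacarpals and the metatarsal of digit III, and lies 8.45 kb from Bmp3, which encodes a bone morphogenetic protein.

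Ghr (chr15:3317755-3583352, minus strand), the growth hormone receptor gene, had 12 regions, of which only the one over the start sites was called in all lists. Of the other 11, 9 were scattered over a long gene body and 2 lay past its downstream end. There were 2, 6 and 3 called regions in foot phalanges of digits I, III and V, 1, 6 and 2 in hand phalanges, 6, 5 and 4 in metatarsals, and 5, 5 and 6 in metacarpals. Digit I and V phalanges held 1 to 3 regions and the other 8 lists 4 to 6, so within phalanges the digit III lists stood with the metapodials. Those 2 lists were also the longest phalanx lists, with 47375 peaks for foot and 44289 for hand, against 36789 to 39937 in the others. The digit III call of Ghr for covered length, given below, was not kept with lists of equal length. The mean was 3.33 ± 2.16 in phalanges and 5.17 ± 0.753 in metapodials (SD, n = 6 lists each), with an exact permutation p = 0.219. The length covered by peaks was 7.12 ± 3.70 kb in phalanges and 11.1 ± 1.42 kb in metapodials (SD, n = 6 lists each), a difference of -3.97 kb with an exact permutation p = 0.0938. It passed within the gene body alone, at -3.38 kb (exact permutation p = 0.0312, against 3.07% of all genes called lower), but not with lists of equal length, at -3.96 kb (exact permutation p = 0.0625), nor with windows of 250 kb, at -3.23 kb (exact permutation p = 0.188). The region over the start sites, chr15:3579630-3585494, was the strongest of all 10 windows, at a mean rank in the top 4.69% and a worst rank of 7.96%, and its summit lay at -59 to -28 bp from the most upstream start site in every list. Of its other 11 regions, those called in most lists included chr15:3424912-3427017, called in 2 phalanx lists (foot III and hand III) and all 6 metapodial lists, and chr15:3443812-3445896, called in 3 phalanx lists (foot III, hand III and hand V) and all 6 metapodial lists.

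**Figure D4:**
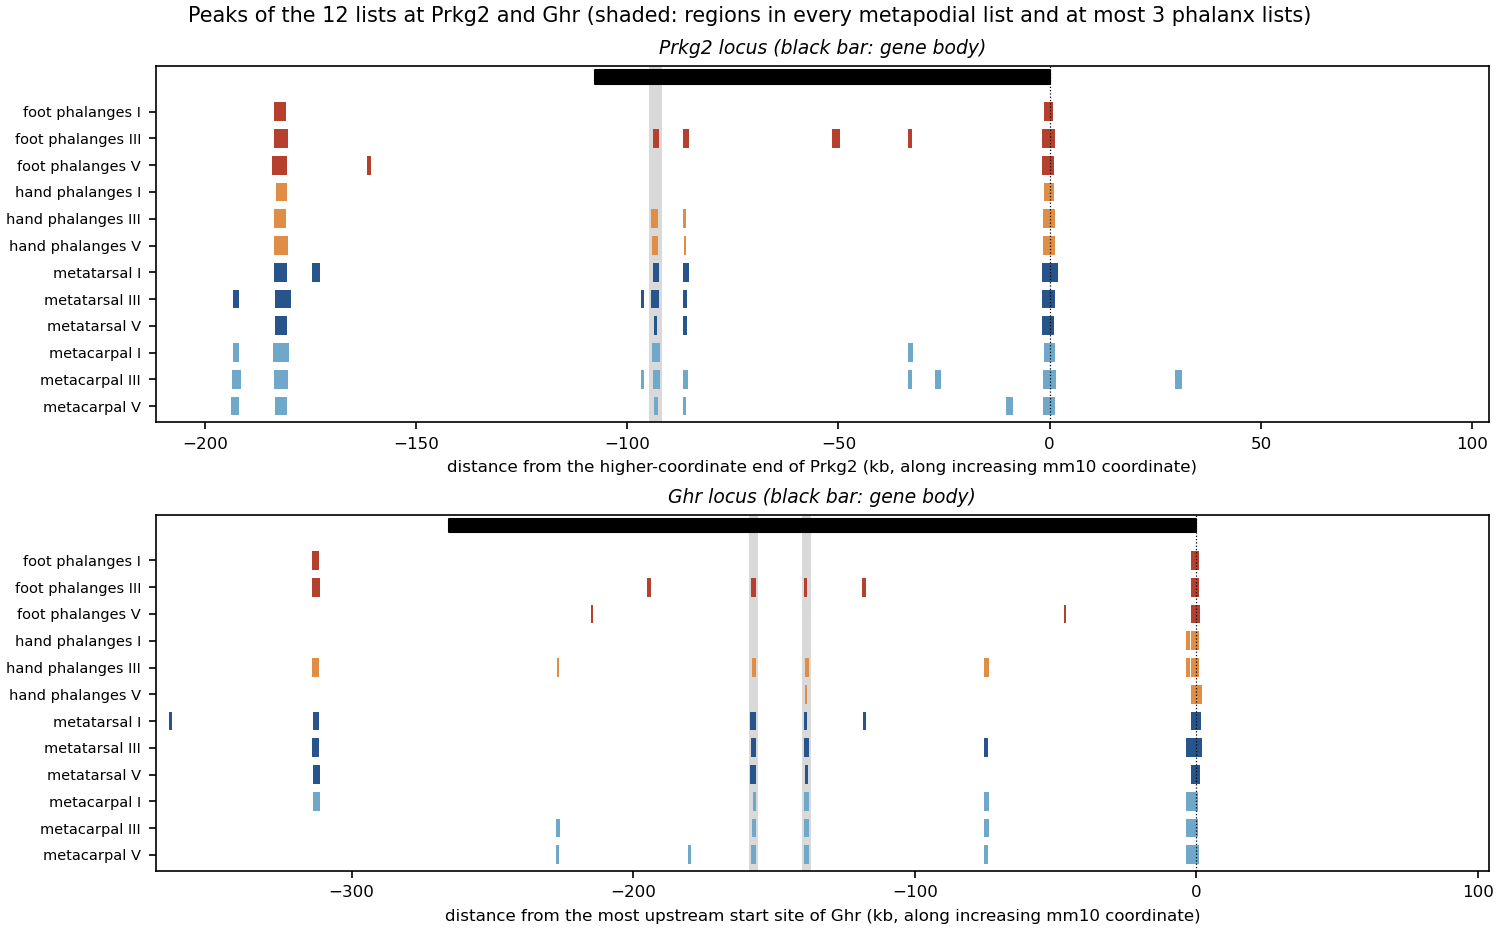
Peaks of the 12 lists (rows, coloured by group) at Prkg2 and Ghr, by distance in kb along increasing mm10 coordinate (horizontal axis) from the higher-coordinate end of Prkg2 and from the most upstream start site of Ghr. The black bar is the gene body, and the 3 grey bands mark regions called in all 6 metapodial lists and in 2 or 3 phalanx lists, which lie inside the gene bodies.

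Igf2 (chr7:142650768-142666816, minus strand), the fetal IGF gene, had 8 regions, none of them in a single list. There were 5, 4 and 5 called regions in foot phalanges of digits I, III and V, 6, 5 and 6 in hand phalanges, 6, 6 and 4 in metatarsals, and 6, 6 and 3 in metacarpals. The means of phalanges and metapodials were both 5.17 regions. The region chr7:142653558-142662041, 8484 bp wide, covered the 3 downstream start sites in all lists and was the strongest at Igf2, at a mean rank in the top 26.2%. The next region, chr7:142662773-142666835, was called in 11 lists and reached the most upstream start site in 1 of them. The other region called in all lists, chr7:142568501-142579514, spans the noncoding neighbour H19 (chr7:142575530-142578146). Between H19 and Igf2, 37.3 kb from Igf2, chr7:142609917-142613474 was called in 5 of 6 phalanx lists (all but foot III) and in 1 of 6 metapodial lists (the metatarsal of digit I). It was the 1 region of the 123 (0.813%) with a pattern of at least 5 phalanx lists and at most 1 metapodial list, against 1.05% of all regions, and it ranked between 79.2% and 99.0% from the top, near the end of the lists that held it. As deposited, no region of the 123 had the opposite pattern, against 1.16%. With lists of equal length the region between H19 and Igf2 lost its pattern. The opposite pattern was then held by chr7:142586140-142589325 in the Igf2 window and chr7:68310604-68313926 in the Igf1r window. The phalanx pattern was then held by chr7:68060198-68065315 and chr7:68100392-68104513 at Igf1r and chr10:120368336-120371288 at Hmga2. No share over all regions was computed for that setting.

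Igf1r (chr7:67952257-68233668, plus strand), the receptor gene for both IGFs, had 23 regions, the most of the 10 windows, and 16 of them had Igf1r as the nearest gene. Called regions numbered 16, 20 and 16 in foot phalanges of digits I, III and V, 16, 16 and 16 in hand phalanges, 21, 16 and 11 in metatarsals, and 15, 19 and 14 in metacarpals. The means were 16.7 ± 1.63 in phalanges and 16.0 ± 3.58 in metapodials (SD, n = 6 lists each; exact permutation p = 0.750). One region, chr7:67949516-67975808, was 26293 bp wide over the start site and the first part of the gene, and its summit lay at -1173 to -354 bp. It was called in all lists, as were chr7:68019564-68023564 and chr7:68126643-68133993 farther inside the gene. A pair of regions inside the gene, chr7:68084967-68086965 and chr7:68159273-68161589, was called in 5 of 6 hindlimb lists and in 1 of 6 forelimb lists. The first was called in the 3 foot phalanx lists, metatarsals of digits I and III and the metacarpal of digit I, and the second in the 3 foot phalanx lists, the same metatarsals and hand phalanges of digit V. They were the 2 regions of the 123 (1.63%) with this hindlimb pattern, against 0.861% of all regions. None of the 123 had the forelimb pattern, against 0.207%. With lists of equal length neither of these 2 regions kept the hindlimb pattern. As deposited, the first ranked between 65.42% and 89.68% from the top of its lists, and the second between 62.57% and 94.05%. Element also divided the regions of the Igf1r window, in both directions. Those in all 6 phalanx lists and at most 3 metapodial lists were chr7:68100392-68104513 (3 metapodial lists) and chr7:68274986-68279625 (2 metapodial lists). Those in all 6 metapodial lists and 3 phalanx lists were chr7:68069955-68075877 and chr7:68310604-68314560. Of these, chr7:68274986-68279625 and chr7:68310604-68314560 overlap the neighbour Fam169b, 41.3 and 76.9 kb past the downstream end of Igf1r.

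Igfbp5 (chr1:72858065-72874865, minus strand), which encodes an IGF-binding protein of the matrix, had 11 regions. Counts of called regions were 6, 8 and 5 in foot phalanges of digits I, III and V, 6, 6 and 5 in hand phalanges, 7, 7 and 6 in metatarsals, and 6, 10 and 5 in metacarpals. The metacarpal of digit III, the longest list, had the most, and the number of called Igfbp5 regions went with the number of peaks in the list (Pearson r = 0.883 across 12 lists, given as a description). The region over the start site was called in all lists, with a summit at -103 to 951 bp from the start site. The strongest region, at a mean rank in the top 25.4%, lay at the related gene Igfbp2, 29.5 kb away.

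Hmga2 (chr10:120361268-120476469, minus strand) had 15 regions, and 14 of them had Hmga2 as the nearest gene. Counts of called regions were 9, 13 and 9 in foot phalanges of digits I, III and V, 12, 11 and 9 in hand phalanges, 13, 11 and 8 in metatarsals, and 11, 11 and 10 in metacarpals. In each group digit V had the fewest or shared the fewest. The region over the start site was the strongest, at a mean rank in the top 21.4% with its summit 242 to 455 bp downstream, and 5 others were called in all lists, among them chr10:120419889-120430911, 11023 bp wide, inside the gene. A pair of regions ran in opposite directions by element: chr10:120368336-120371288, near the downstream end, was in all 6 phalanx lists and in 2 metapodial lists, and chr10:120308284-120309998, 51.3 kb past that end, was in 3 phalanx lists and all 6 metapodial lists. With lists of equal length the region near the downstream end was present in all 6 phalanx lists but absent from every metapodial one. No share over all regions was computed for that setting. With peaks covering 50% of a region it was in 1 metapodial list. As deposited it ranked between 52.9% and 96.2% from the top, so no list held it in its more significant 50%. A further region, chr10:120382959-120389316, was called in 3 of 4 digit I lists (all but the metacarpal) and in no list of digits III and V. It ranked between 77.9% and 95.5% from the top of those lists. Its summits were spread over 1770 bp of its 6358 bp, and no share over all regions was computed for this pattern.

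**Figure D5:**
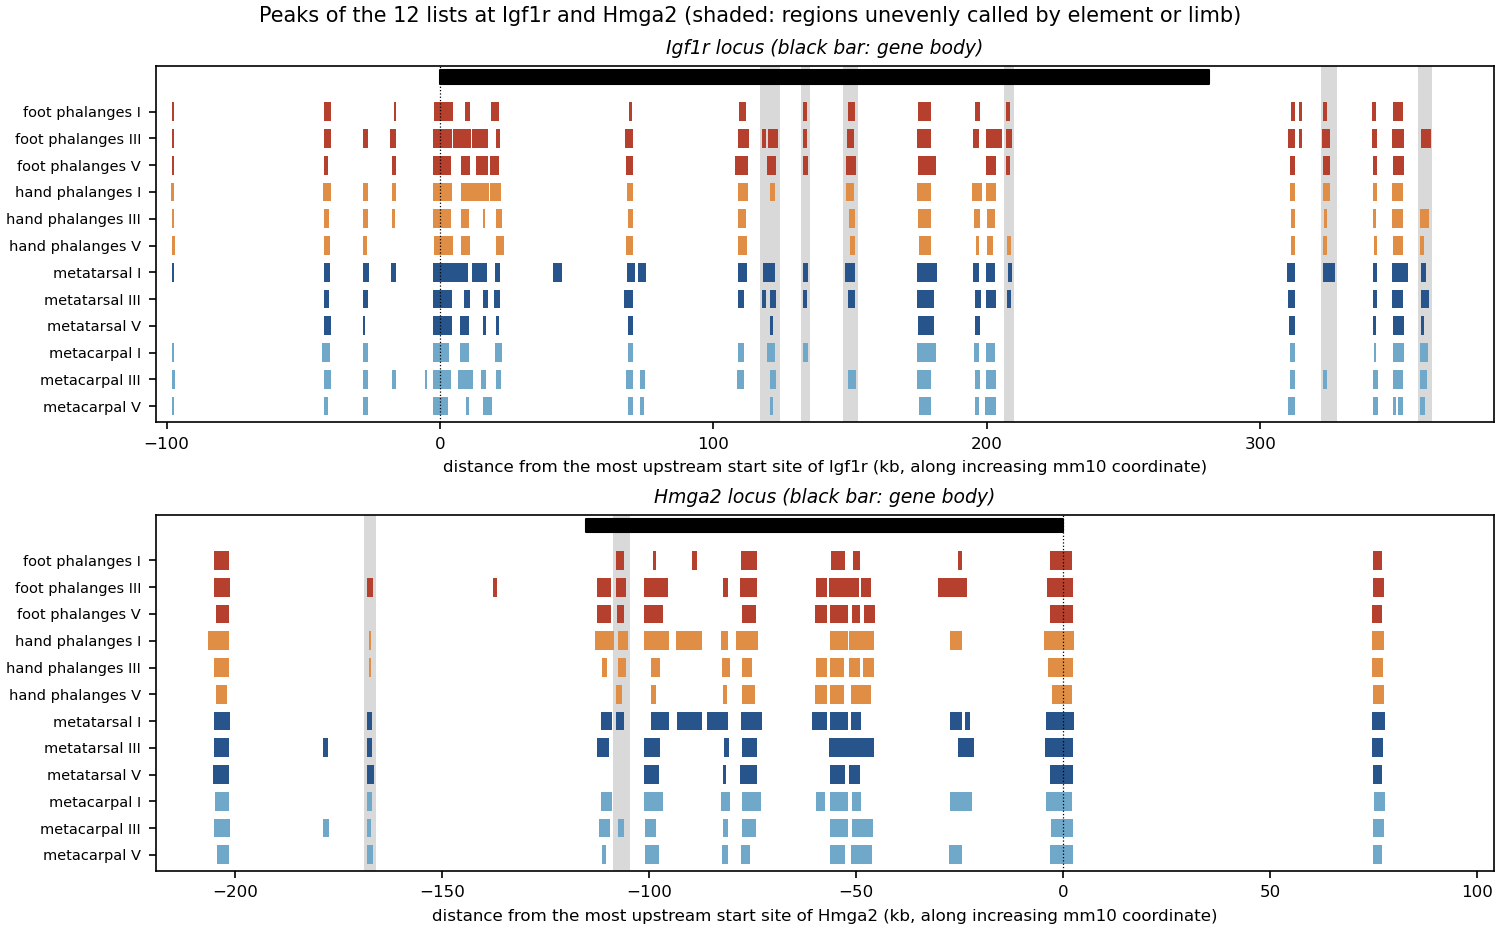
Peaks of the 12 lists (rows, coloured by group) at Igf1r and Hmga2, by distance in kb from the most upstream start site (horizontal axis, increasing mm10 coordinate; Hmga2 reads from right to left). The black bar is the gene body, and the grey bands mark the 6 regions of the Igf1r window and 2 of the Hmga2 window that were called in all lists of 1 element and at most 3 of the other, or in 5 hindlimb lists and 1 forelimb list.

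Over all 10 windows, 6 regions (4.88%) were called in every metapodial list and in at most 3 phalanx lists, against 1.72% of all regions, and they lay in the windows of Ghr (2), Igf1r (2), Prkg2 and Hmga2. With the reverse pattern there were 3 regions (2.44%), in the windows of Igf1r (2) and Hmga2, against 1.47% of all regions. Neither limb had such a region (1.19% of all regions for hindlimb and 0.410% for forelimb). These counts are small and the regions of 1 gene share a window, so nothing is read from the shares beyond the positions. With lists of equal length the metapodial count was 3 and the phalanx count 3, and no share over all regions was computed for that setting.

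Phalanges and metapodials were compared gene by gene with labels swapped within pairs of lists matched for limb and digit. None of the 10 genes passed at an unadjusted exact permutation p of 0.05 for the number of called regions, where 1.38% of 20028 genes passed as higher in phalanges and 1.61% as lower. The median difference was -0.08 regions at the 10 genes and 0 over all genes, and 3 genes had more regions in phalanges and 5 fewer. With lists of equal length 2 genes passed, Prkg2 with fewer regions in phalanges (1.97% of all genes) and Igf1r with more (2.93% of all genes). None passed for covered length either (4.89% of all genes higher and 4.26% lower), and the smallest p was shared by Ghr and Prkg2 (exact permutation p = 0.0938 each). Hindlimb and forelimb gave no call among the 10 genes for the number of regions (0.949% of all genes higher and 0.150% lower) or for covered length (4.14% higher and 0.494% lower). Digit I against digits III and V gave none for the number of regions (1.44% higher and 0.744% lower) or for covered length (3.83% higher and 1.01% lower). Prkg2 came nearest for the number of regions, with 3.5 ± 1.73 in digit I lists and 5.25 ± 1.91 in lists of digits III and V (SD, n = 4 and n = 8; exact permutation p = 0.0988), and passed with lists of equal length, at -1.38 regions (exact permutation p = 0.0247, against 1.5% of all genes called lower and 4.53% higher). After Benjamini-Hochberg adjustment over all 20028 genes, no gene of the genome passed the exact permutation test in any of these comparisons, and the smallest adjusted p for the number of regions was 0.660 for element, 1 for limb and 1 for digit I. The smallest exact permutation p that the design can give is 0.0312 for element and limb and 0.0123 for a digit. Such a value passes the adjustment only if a large share of all genes reach it. The adjusted result therefore does not show that no gene differs.

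Digit III was the one class with calls among the 10 genes in the direction of more regions. Npr3 averaged 7.75 ± 0.957 called regions in digit III lists (n = 4) and 5.75 ± 0.463 in lists of digits I and V (n = 8), with an exact permutation p = 0.0123, the smallest that this design can give. Prkg2 averaged 6.25 ± 2.06 in digit III lists and 3.88 ± 1.46 in the others (SD, n = 4 and n = 8; exact permutation p = 0.0247). Igfbp5 averaged 7.75 ± 1.71 in digit III lists and 5.75 ± 0.707 in the others (SD, n = 4 and n = 8; exact permutation p = 0.0494). In all 4 sets of lists matched for limb and element, the digit III list was above the mean of the other lists for each of these genes. The test itself rests on these sets, so this adds no support to the calls. No share of all genes with that pattern is given here. These 3 calls stand against 16.3% of all genes called higher in digit III and 0.0200% called lower, in lists that were longer, and none passed after adjustment over all genes (smallest adjusted exact permutation p = 0.248). That adjustment too can be passed only if a large share of all genes reach the smallest p. With lists of equal length no call remained: the difference was 0.375 regions at Npr3, 0.875 at Prkg2 and -0.75 at Igfbp5. Without the metacarpals, since the list of digit III is the longest of all, Prkg2 was at 2.0 regions (exact permutation p = 0.111) and Igfbp5 at 1.17 (exact permutation p = 0.185). The Prkg2 call was also lost when the digit III metatarsal or any of the foot phalanx lists was left out, and the Igfbp5 call when any list was left out other than hand phalanges or the metatarsal of digit I. Covered length gave 3 calls higher in digit III, at Npr3, Prkg2 and Ghr, against 14.9% of all genes, and 0.414% of all genes were lower. Of these, only Prkg2 passed with lists of equal length, at 2.00 kb more in digit III (exact permutation p = 0.0370, against 7.43% of all genes called higher), and no covered-length call was left when any 1 of the 6 phalanx lists was left out. Relative to the list total the direction of the calls turned. The number of regions then gave 1 call, Nppc, lower in digit III (25.2% of all genes lower and 4.08% higher), and covered length gave 2, Npr2 and Igf2, both lower (18.1% of all genes lower and 6.91% higher).

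Digit V gave 1 call, Hmga2, with 9.0 ± 0.816 called regions in digit V lists (n = 4) and 11.4 ± 1.30 in lists of digits I and III (SD, n = 8; exact permutation p = 0.0494). That is 1 of 10 genes against 5.52% of all genes called lower in digit V (0.0449% higher), and with lists of equal length the difference was -0.75 regions (exact permutation p = 0.543). The call held without any 1 of the foot phalanx lists and was lost without any 1 of the other 9 lists. Covered length gave none (6.50% of all genes lower and 0.165% higher).

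Of the other genes of these pathways, 15 were listed for natriuretic peptides and cyclic GMP, 22 for IGF and growth hormone and 8 for HMGA2 and growth-linked RNA-binding proteins, of which 7 could be tested, since H19 is not a protein-coding gene. Of these lists too, nothing was called after adjustment over all genes, which the smallest possible p puts all but out of reach. For the number of regions between phalanges and metapodials, Hmga1, the relative of Hmga2, was the only one called, with 11.5 ± 1.05 called regions in phalanges and 8.33 ± 1.21 in metapodials (SD over 6 lists each, with p = 0.0312 in the exact permutation test). That is 1 of the 7 genes of its list and none of the 15 and 22 of the others, against 1.38% of all genes called higher. In that comparison 13 of the 15 natriuretic and cyclic GMP genes had fewer regions in phalanges, with a median difference of -0.67 regions against 0 over all genes, and none was called. The share of all genes with fewer regions is not given here, so nothing is read from that count. Nppa and Nppb had the same difference (-0.5 regions), as did Gucy1a1 and Gucy1b1 (-0.17 regions), so the 15 genes are not independent. Among them Prkg1, the other cyclic GMP-dependent kinase gene, averaged 15.3 ± 3.83 in phalanges and 17.8 ± 5.42 in metapodials (SD, n = 6 lists each; exact permutation p = 0.312). Gucy2c (exact permutation p = 0.156) and Pde5a also missed the threshold. Among IGF genes with many regions, Igfbp7 averaged 10.7 ± 1.37 in phalanges and 13.2 ± 1.72 in metapodials (exact permutation p = 0.0938). In the other direction, Igfbp4 averaged 12.8 ± 1.94 in phalanges and 10.5 ± 1.87 in metapodials (SD, n = 6 lists each; exact permutation p = 0.250). The protease gene Pappa averaged 8.5 ± 2.07 in phalanges and 10.2 ± 3.76 in metapodials (SD over 6 lists each, exact permutation p = 0.438). Of the RNA-binding protein genes, Igf2bp2 averaged 6.5 ± 2.51 in phalanges and 8.83 ± 2.32 in metapodials (SD over 6 lists each, exact permutation p = 0.250), and Igf2bp3 and Lin28b also missed the threshold. Between limbs, Igfbp6, another IGF-binding protein gene, was called, with 11.2 ± 0.753 regions in hindlimb lists and 9.0 ± 0.894 in the forelimb ones (two-sided exact permutation p = 0.0312; SD over 6 lists each), and it was also called higher in digit I against digits III and V (exact permutation p = 0.0494). Each time Igfbp6 was 1 of the 22 IGF genes, against 0.949% of all genes called higher in hindlimb and 1.44% in digit I. In digit III, 5 of the 15 natriuretic and cyclic GMP genes were called higher (Nppa and its neighbour Nppb, whose windows overlap, Prkg1, Ostn and Furin), 4 of the 22 IGF genes (Insr, Irs1, Grb10 and Pappa2) and 2 of the 7 others (Plag1 and Lin28b), against the 16.3% of all genes given above, and none lower. Covered length gave further calls. Between phalanges and metapodials it was 21.5 ± 2.84 kb and 14.6 ± 1.39 kb at Igfals, 28.6 ± 4.53 kb and 22.7 ± 4.23 kb at Socs3, and 16.9 ± 2.80 kb and 23.0 ± 5.87 kb at Plag1 (SD, n = 6 lists each; exact permutation p = 0.0312 each). These are 2 of 22 IGF genes called higher and 1 of 7 others called lower, against the 4.89% and 4.26% of all genes given above. Between hindlimb and forelimb Igfbp6, Lin28b and the neighbours Igfbp1 and Igfbp3, whose windows overlap, were called higher in hindlimb (exact permutation p = 0.0312 each, against 4.14% of all genes), and Furin was called higher in digit I (exact permutation p = 0.0370, against 3.83%). Prkg1 had 21.0 ± 4.83 regions in digit III lists and 14.4 ± 2.72 in the others (SD, n = 4 and n = 8; exact permutation p = 0.0247), and Ostn, which encodes osteocrin, a peptide that binds the clearance receptor, had 3.75 ± 0.957 and 2.12 ± 0.354 (exact permutation p = 0.0123).

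By the pattern of called regions over the 12 lists, the gene most like Prkg2 among 12960 candidates at least 2 Mb away was Tmem72 (Pearson r = 0.973), and the gene most like Igfbp5 was Ccdc81 (r = 0.958 over 12 lists). Npr3 was most like Dnajc10 (r = 0.947), Igf1r most like Bach2 (r = 0.929), Hmga2 most like Slc25a28 (r = 0.923) and Nppc most like Cachd1 (r = 0.919). Npr2 was most like Glt28d2 (r = 0.914) and Igf2 most like Wdr66 (r = 0.860). The points share list length, which itself correlated with the number of called regions at r = 0.192 (Igf1) to 0.883 (Igfbp5), and Igf1, with under 8 regions, was not matched.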

How the data were processed

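ATAC-seq of E15.5 FVB/NJ autopod cartilage gave 36 libraries in 12 groups of 3, of which the files analysed hold 1 peak list per group, called on pooled libraries per the peak names and selected by irreproducible discovery rate per the names of the lists. Per the submitters' processing notes, the tools were Bowtie2 2.3.4.1, MACS3 and Picard 2.9.0, with coordinates on mm10. Trimming, filtering, cut-site shift and caller settings are not given in the sources used here. Per the labels' protocols, at least 40 M reads per library were sought.

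For each peak the authors deposited a −log10 p-value, a linear ratio (fold enrichment over background), a score and the offset of the summit. They come from the peak caller and served to rank peaks inside a list, or to trim it. The 12 columns of −log10 q-values were not used here. No counts were analysed here, so depth and replicate spread are unknown.

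Peaks sharing at least 1 bp over all lists were merged, and a list called a region if any of its peaks covered 1 bp or more of it. Gene bodies, gene names and promoter windows came from RefSeq tables for GRCm38.p6. They carry no exons, so exons and introns could not be separated, and no genome sequence was used. Called regions and covered length per gene were compared by two-sided exact permutation tests over lists (64 labellings for element and limb, 81 for a digit), run on all 20028 protein-coding genes with a region in the window and Benjamini-Hochberg adjusted over them. A call is an unadjusted p of at most 0.05. The p-values measure the spread between lists. The tests were checked on simulated data. Python 3.11.15, numpy 2.4.6, pandas 2.3.3, scipy 1.17.1, matplotlib 3.10.9 and bedtools 2.31.1 were used.

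The members, the pathway lists and the tests were chosen with earlier results of these data known. Named were all members, pathway genes called for element, limb or digit I with up to 3 examples per list that were not, regions over start sites, the strongest region per gene, regions that separated or nearly separated a class (at least 5 lists of one and at most 1 of the other) and, per member with at least 8 regions, the gene of most similar pattern. Regions in all lists of an element and at most 3 others, the 4 groups of limb and element, stretches of at least 200 bp, covered length for digits III and V and markers at gene ends were added after the data were seen, as were the further varying regions described at Npr2, Prkg2, Igf1, Igf2 and Hmga2. Alternatives were lists of equal length, the more significant 50% of each list, peaks covering 50% of a region, 500-bp windows round summits, windows of 50 kb, 250 kb and the gene body alone, values relative to the list total, labels swapped without matching and each list left out. Some marker and pattern-likeness results are not reported here.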

Additional observations from a re-analysis of the deposited data

Results flagged for a closer look

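Each gene's number of called regions and covered length was checked in every limb, element and digit class of 4 or 6 lists for 1 list that stands far from the rest of its class (Dixon's criterion). Of 140 such checks 19 stood out. No rate by chance is set beside this, since the criterion assumes values without ties. Each list also enters a limb, an element and a digit class, so the checks are not independent. Most values are small whole numbers with ties, so a single region sets many of them.

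In called regions, Nppc had 6 in the metatarsal of digit III where the other hindlimb lists had 7, and 7 in the metacarpal of digit III where the other forelimb lists had 6. Npr2 had 8 in the metacarpal of digit V, above the other digit V lists. Npr3 had 5 in hand phalanges of digit I and 5 in foot phalanges of digit V, each below its digit class. Igf2 had 3 in the metacarpal of digit V, the lowest forelimb list, and 5 in foot phalanges of digit I, the lowest digit I list. Igf1r had 20 in foot phalanges of digit III, the highest phalanx list, and 21 in the metatarsal of digit I, the highest digit I list. Igfbp5 had 8 in foot phalanges of digit III among phalanges, 10 in the metacarpal of digit III among forelimb lists, 7 in the metatarsal of digit I among digit I lists and 6 in the metatarsal of digit V among digit V lists. Hmga2 had 13 in foot phalanges of digit III, the highest digit III list.

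In covered length, Npr3 had 22.01 kb in foot phalanges of digit III, far above the other phalanx, hindlimb and digit III lists alike. Prkg2 had 10.75 kb in the metacarpal of digit V and Igf1 had 9.98 kb in foot phalanges of digit V, each the highest digit V list. No gene showed opposite effects of a contrast in all lists of 2 classes.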

How the results depend on the processing

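No paired analysis was possible because the deposited lists pool the 3 libraries of a group, so libraries could not be paired by number, and the tests match whole lists for limb, element or digit instead. Of 645 alternative values, 456 kept their direction and side of the threshold or, for counts, lay within 1.5 times the count as deposited. With the direction kept, 80 lost their call and 16 gained one, while 87 counts moved farther and 6 values were reversed. The 456 include values for element and limb with a list left out, which could not pass the threshold, so their number does not measure stability. Shares in parentheses are of all genes called in that setting, in both directions together. No share over all regions was computed for the region counts of these settings, and none over all genes or regions with a list left out. Those counts therefore do not show whether the 10 genes differ from the genome. With lists of equal length the number of genes called was 2 for element (4.90%; Prkg2 lower, Igf1r higher in phalanges), 1 for digit I (6.04%), 0 for digit III (5.05%), 0 for digit V (1.90%), 2 for covered length by element (13.7%) and 1 for covered length by digit III (10.7%), with 1 separating region (at Hmga2) and 5 nearly separating. With the more significant 50% of each list these were 1 for digit III (9.77%), 1 for covered length by limb (4.45%) and 1 by digit III (13.3%), with 1 nearly separating region, 25 regions in every list, 14 in 1 list and 58 in all. With 50% cover they were 1 for digit I (3.63%) and 0 for digit V (4.63%), with 5 nearly separating and 20 in every list. Summit windows gave 0 for digit V (6.60%). Windows of 50 kb gave 0 for digit V (3.39%) and 25 regions in every list. The gene body alone gave 1 for digit III (4.84%), 0 for digit V (1.10%) and 1 for covered length by element (6.84%), with 53 regions, 15 in every list and 9 in 1 list. Windows of 250 kb gave 2 for digit V (11%) and 1 for covered length by digit III (18.5%), with 257 regions, 87 in every list, 46 in 1 list, 8 nearly separating and 1 separating (at Ghr, digit III). Relative to the list total the calls were 2 for element (12.5%), 1 for limb (4.61%), 1 for digit I (8.04%) and 0 for digit V (5.82%), and 1 each for covered length by element (19.5%) and limb (6.69%). Labels swapped without matching gave 1 for element (6.23%), 1 for limb (2.32%), 2 for digit V (5.85%) and 2 for covered length by element (16.1%).

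The direction was reversed for Igfbp5 with lists of equal length (-0.75 regions in digit III, 0.375 in digit V), for Npr3 covered length within the gene body (-0.345 kb by limb, -0.0297 kb by digit III) and, relative to the list total, for the digit III calls, which were 1 lower for the number of regions (29.3%) and 2 lower for covered length (25.0%). Fewer peaks or shorter windows lower the counts by construction, and otherwise the cause was not tested.

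With each list left out in turn, a matched set that lost a class went too. For element and limb this leaves 5 pairs, whose smallest exact permutation p is 0.0625, so the 0 to 0 genes called there, for the number of regions and for covered length, say nothing of stability. The Prkg2 difference by element ranged from -2.80 to -1.80 regions. The genes called ranged from 0 to 0 for digit I, 1 to 3 for digit III and 0 to 2 for digit V. For covered length they ranged from 0 to 3 for digit I (3 without the foot phalanges of digit I), 0 to 3 for digit III and 0 to 0 for digit V. Separating regions ranged from 0 to 1, nearly separating ones from 3 to 10, regions in every list from 39 to 41, regions in 1 list from 20 to 27 and all regions from 118 to 123. Npr3 kept its digit III call for the number of regions in every case. The pooled lists, with their unequal ends, limit what a missing region can show.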
